A study of Homo sapiens with 3 samples.

Results

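The proximal band of the long arm of chromosome 22, 22q11.2, was examined between 17 and 22 Mb (hg19) in ChIP-seq peak lists of codanin-1 and GATA1 from K562 cells, an established human erythroleukaemia line. Members were chosen by position alone: every deposited peak on chromosome 22 whose midpoint lay from 17 Mb up to 22 Mb. This gave 653 of 14365 codanin-1 peaks (4.55% of the list) and 593 of 5164 GATA1 peaks (11.5%), or 1246 of 19529 peaks in all. Chromatin came from K562 cultures, with 30000000 cells per sample, fixed with 1% formaldehyde for 10 minutes. The codanin-1 library was made with Cod1, an antibody raised against residues 123 to 142 of the protein, and the GATA1 library with the antibody N6. A peak list of the rabbit IgG library and data from a second codanin-1 antibody were not analysed here. Each antibody had 1 library from 1 cell line, so no value below carries a replicate error, and no test between conditions was possible. The 95% exact intervals cover counting error only, and neighbouring peaks are not independent. Read counts are not part of the peak lists, and the depth behind each peak is unknown.

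Codanin-1 is encoded by CDAN1, a gene mutated in congenital dyserythropoietic anaemia type I, and it binds the histone chaperone ASF1. GATA1 is the transcription factor that directs erythroid gene expression. Band 22q11.2 is known for blocks of segmental duplication, the low-copy repeats LCR22, whose misalignment gives the recurrent deletions and duplications of DiGeorge syndrome and related disorders. The band also holds HIRA, which encodes a histone H3.3 chaperone that binds ASF1 as well. In K562 cells the BCR gene, further along the same arm, is fused to ABL1 of chromosome 9, and the line is known to carry extra copies of the fusion and of the 22q sequence next to it. No gene annotation, duplication track or assembly gap list of the files' build was used, so all sites are given by position and none is assigned to a gene or to a named repeat. Copy number was not measured in these files.

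Peaks of both proteins were packed far more densely in this region than on the arm from 24 Mb on. The region held 131 codanin-1 peaks per Mb (exact Poisson interval 121 to 141), against 2.55 per Mb from 24 Mb to the last peak of the chromosome (1.99 to 3.23, from 69 peaks). For GATA1 the densities were 119 peaks per Mb in the region (109 to 129) and 0.888 per Mb from 24 Mb on (0.569 to 1.32, from 24 peaks). The codanin-1 density was thus 51.2 times that of the distal arm (exact interval 39.9 to 66.6) and the GATA1 density 134 times (88.9 to 210). The adjoining stretch from 22 to 24 Mb was denser than the region as a whole. It held 220 codanin-1 peaks per Mb (199 to 241) and 159 GATA1 peaks per Mb (142 to 177). Against all other chromosomes the density ratio was 30.1 for codanin-1 (27.8 to 32.6) and 85.5 for GATA1 (78.3 to 93.2). Codanin-1 peaks covered 5.23% of the region, against 0.0662% of the distal arm, and GATA1 peaks covered 2.81% and 0.0155%.

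The crowding did not begin at the lower bound of the region. It began at position 18651795, the start of the first peak of either list that was followed by 1 Mb without a peak-free stretch of at least 50 kb, a definition made after seeing the data. Above this position lay 619 codanin-1 peaks (185 per Mb, interval 171 to 200) and 557 GATA1 peaks (166 per Mb, 153 to 181), called the crowded part below. The lower 1.65 Mb, called the sparse part, held 34 codanin-1 peaks (20.6 per Mb, 14.3 to 28.8) and 36 GATA1 peaks (21.8 per Mb, 15.3 to 30.2). From 22 to 24 Mb the density was 1.19 times that of the crowded part for codanin-1 (1.05 to 1.34). For GATA1 it was 0.953 times (0.827 to 1.10). The density of the crowded part was 8.98 times that of the sparse part for codanin-1 (6.36 to 13.1) and 7.63 times for GATA1 (5.45 to 11.0). The step was sharp at the 100 kb scale for codanin-1, with 20 peaks from 18.7 to 18.8 Mb, against 5 from 18.6 to 18.7 Mb and 2 from 18.5 to 18.6 Mb. The GATA1 count was higher over a longer distance, with 5, 8 and 20 peaks in the 3 windows from 18.7 to 19 Mb, against 2 from 18.6 to 18.7 Mb. The region is therefore described below in these parts and not as a single amplified block.

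**Figure D1:**
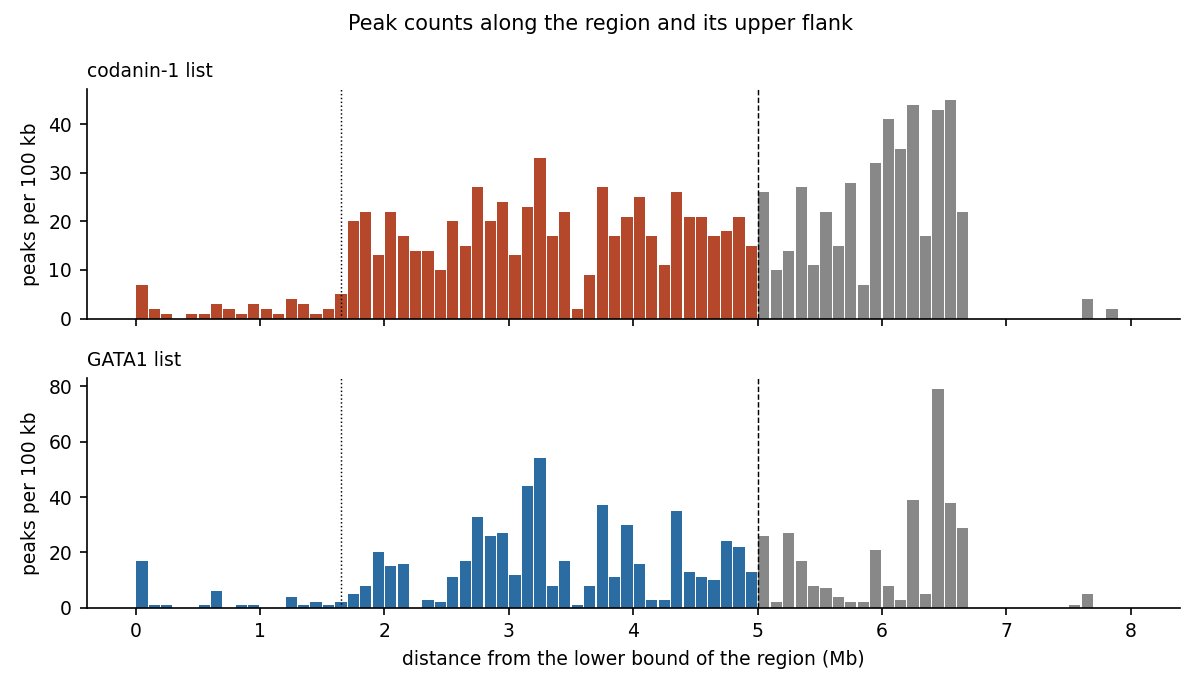
Number of codanin-1 peaks (top) and GATA1 peaks (bottom) per 100 kb window, plotted by distance in Mb from the lower bound of the region; coloured bars are the region, grey bars the chromosome above it. The dotted line marks the start of the crowded part, at 1.65 Mb, and the dashed line the upper bound of the region, beyond which the crowding goes on until both lists become empty.

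The sparse part was not uniform, and was still denser than the distal arm. Its first 100 kb held 17 of its 36 GATA1 peaks, between 17001297 and 17090127, and 7 of its 34 codanin-1 peaks. Of the 8 codanin-1 peaks of the sparse part that overlapped a GATA1 peak, 6 lay there. Without this first 100 kb the sparse part held 27 codanin-1 peaks, or 17.4 per Mb (11.5 to 25.3), and 19 GATA1 peaks, or 12.2 per Mb (7.37 to 19.1). These densities were 6.82 times (4.20 to 10.8) and 13.8 times (7.14 to 26.3) those from 24 Mb on. The widest GATA1 peak of the whole region, 1549 bp at 17040671 to 17042219 with a fold enrichment of 4.66, belonged to this group.

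The upper edge of the crowding lay outside the region, and at 22 Mb the lists ran on without a break. The last codanin-1 peak inside the bound was at 21997405 to 21997674 (2.91-fold) and the first beyond it at 22005147 to 22005576 (3.33-fold). For GATA1 these were the peaks at 21997907 to 21998421 (3.80-fold) and 22003866 to 22004285 (3.90-fold). From 22 to 24 Mb the chromosome held 439 codanin-1 and 317 GATA1 peaks. The last codanin-1 peak of this stretch ended at 23659928 and the last GATA1 peak at 23652640. Both lists were then empty for 921 kb, up to a GATA1 peak at 24580900, and the next codanin-1 peak began at 24647338. By a rule on 100 kb windows, the last one below 25 Mb with at least 5 times the mean count of the arm from 25 Mb on, the edge fell at 24.9 Mb for codanin-1 and 24.7 Mb for GATA1. Those windows lay beyond the empty 921 kb and held 2 codanin-1 and 5 GATA1 peaks, since the mean of the arm was only 0.242 codanin-1 and 0.0691 GATA1 peaks per window. The last run of 10 consecutive windows past the same count, added after seeing the data, ended at 23.7 Mb in both lists. At the lower bound, the first members were a codanin-1 peak at 17001334 to 17002218 (3.57-fold) and a GATA1 peak at 17001297 to 17002011 (4.62-fold). The last peaks below it were at 16991758 to 16991935 for codanin-1 (3.77-fold) and 16884532 to 16884661 for GATA1 (4.08-fold).

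Peak-free stretches were almost all in the sparse part. The start of the crowded part was set where 1 Mb followed without one of at least 50 kb. This contrast was thus largely fixed by definition. Stretches of at least 50 kb with no peak of either list numbered 14 in the region. Of these, 12 lay between peaks of the sparse part and 1 inside the crowded part. The other ran from the last peak of the sparse part to the start of the crowded part. The 12 took up 59.2% of the sparse part, not counting the stretch at its upper end. The one inside the crowded part took up 3.08% of that part. The longest, 218 kb, ran from 17247724 to 17465443, between a GATA1 peak of 4.33-fold and a codanin-1 peak of 4.75-fold. The second longest, 103 kb from 20507264 to 20610353, was the one inside the crowded part. It was bordered on both sides by codanin-1 peaks, at 20506451 to 20507263 (3.81-fold) and 20610354 to 20611154 (3.66-fold). The 100 kb window below, from 20.4 to 20.5 Mb, held 22 codanin-1 and 17 GATA1 peaks, while the one above, from 20.6 to 20.7 Mb, held 9 and 8. The third, 102 kb from 18549374 to 18651794, separated the sparse from the crowded part. The fourth, 91.0 kb, ran from 17965592 to 18056616, and the fifth, 85.4 kb, from 17090128 to 17175512, just above the group of GATA1 peaks in the first 100 kb. From 22 Mb up to the last peak before the empty 921 kb there was no such stretch. Whether the stretches coincide with segmental duplications or unsequenced bases was not tested.

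Codanin-1 peaks were spread more evenly through the crowded part than GATA1 peaks. Among its 33 whole 100 kb windows the codanin-1 count had a median of 20 (quartiles 15 and 22, range 2 to 33) and the GATA1 count a median of 13 (quartiles 8 and 24, range 0 to 54). The variance of the counts was 2.02 times their mean for codanin-1 and 10.2 times for GATA1. Over the whole region 1 of 50 windows held no codanin-1 peak (2.00%) and 6 of 50 held no GATA1 peak (12.0%), and in the crowded part these numbers were 0 and 1 of 33. At 50 kb, over 66 windows, the ratio of variance to mean was 1.99 for codanin-1 and 6.23 for GATA1. The GATA1 list had 11 stretches of at least 50 kb without a peak in the crowded part, against 1 in the codanin-1 list. Those 11 stretches added up to 799 kb and still held 92 codanin-1 peaks, or 115 per Mb, with 2 to 15 in each. The longest, 132 kb from 19184014 to 19315572, held 15 codanin-1 peaks of median width 269 bp and median fold enrichment 3.85. It was followed by GATA1-free stretches of 76.7 kb and 71.2 kb, with 14 and 6 codanin-1 peaks.

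The 3 fullest 100 kb windows of each list lay between 19.7 and 20.8 Mb, not all next to each other. For both lists the highest count was from 20.2 to 20.3 Mb, with 33 codanin-1 peaks (exact Poisson interval 22.7 to 46.3) and 54 GATA1 peaks (40.6 to 70.5). For codanin-1 it was followed by 19.7 to 19.8 Mb and 20.7 to 20.8 Mb, with 27 peaks each and 33 and 37 GATA1 peaks. For GATA1 the second was 20.1 to 20.2 Mb, with 44 peaks and 23 codanin-1 peaks, and the third was 20.7 to 20.8 Mb. Just behind these came the window from 21.3 to 21.4 Mb, with 26 codanin-1 and 35 GATA1 peaks. GATA1 outnumbered codanin-1 in 12 of the 33 windows of the crowded part and codanin-1 outnumbered GATA1 in 21. In windows of 500 kb the number of codanin-1 peaks per GATA1 peak was 2.14 from 19 to 19.5 Mb, 0.800 from 20 to 20.5 Mb and 1.43 from 21 to 21.5 Mb. Over all 50 windows of 100 kb, the counts of both lists had a Pearson r of 0.80 and a Spearman rho of 0.85, and over the 33 windows of the crowded part 0.75 and 0.72. These correlations are descriptions of windows that come from the same libraries.

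**Figure D2:**
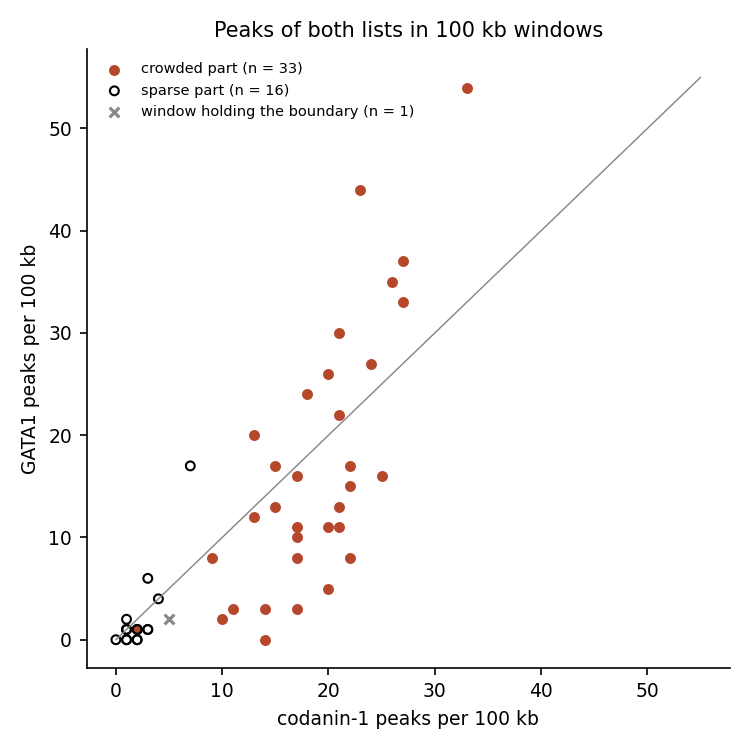
GATA1 peaks per 100 kb (vertical) against codanin-1 peaks per 100 kb (horizontal) for the 50 windows of the region, with filled points for the 33 windows of the crowded part, open points for the 16 of the sparse part and a cross for the window that holds their boundary. Equal counts lie on the grey line; the crowded windows run from 0 to 54 GATA1 peaks but only from 2 to 33 codanin-1 peaks.

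Neighbouring peaks of the crowded part lay a few kilobases apart, while the sparse part had longer median distances. Over the whole region the median distance between neighbouring midpoints was 3.37 kb for codanin-1 (quartiles 1.80 and 7.15 kb). For GATA1 it was 1.96 kb (0.990 and 5.57 kb). From 24 Mb on the medians were 236 kb and 42.8 kb. The exact intervals of the medians were 3089.5 to 3749.5 bp in the region and 155244 to 330268 bp from 24 Mb on for codanin-1. For GATA1 they were 1776 to 2291 bp in the region and 3365 to 388980 bp from 24 Mb on, a wide interval that rests on 24 peaks. The mean spacing, 7.66 kb for codanin-1 and 8.44 kb for GATA1, is set by the number of peaks over nearly the same span. GATA1 had fewer peaks, 593 against 653, and the shorter median. From 22 to 24 Mb the medians were shorter than in the region, at 2.24 kb for codanin-1 and 1.30 kb for GATA1. In the crowded part they were 3.20 kb for codanin-1 and 1.89 kb for GATA1. In the sparse part they were 30.2 kb for codanin-1 (11358 to 58319 bp) and 10.6 kb for GATA1 (2598 to 22915 bp). Peaks of 1 list never touched: the smallest edge-to-edge distance in the region was 408 bp in the codanin-1 list, where the genome-wide minimum was 406 bp, and 242 bp in the GATA1 list, where it was 241 bp. In 125 of 652 neighbouring codanin-1 pairs (19.2%) and 200 of 592 GATA1 pairs (33.8%) the edges were under 1 kb apart.

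**Figure D3:**
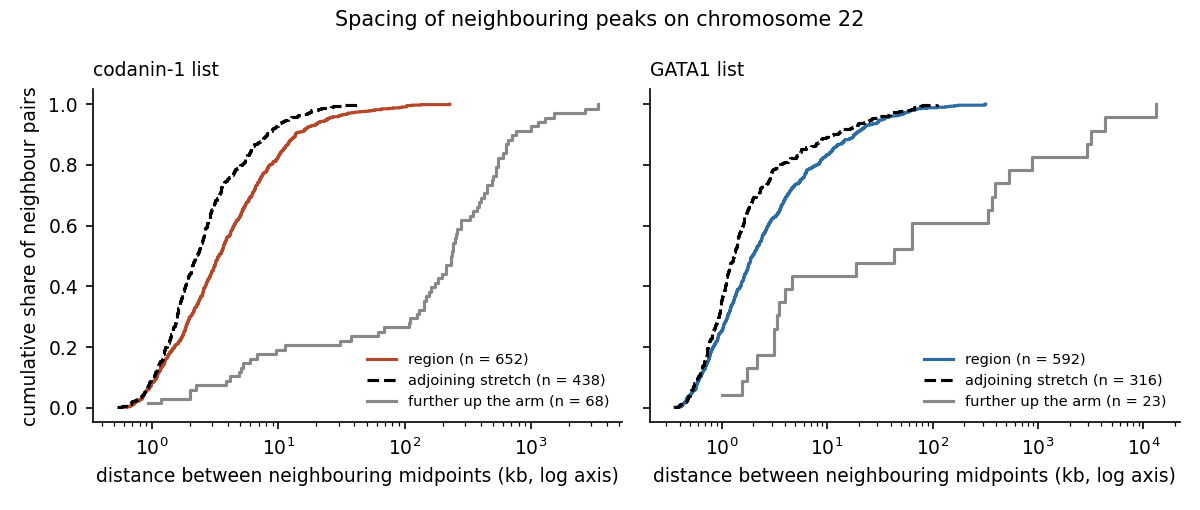
Cumulative share of neighbouring peak pairs (vertical) by the distance between their midpoints in kb on a log axis, for codanin-1 (left) and GATA1 (right). Coloured lines are the whole region, with the sparse and crowded parts pooled. Dashed black lines are the adjoining stretch from 22 to 24 Mb and grey lines the arm from 24 Mb on. The region's medians of 3.37 and 1.96 kb lie left of the distal medians of 236 and 42.8 kb; the distal GATA1 line rests on 24 peaks, and its lower quartile is 3.26 kb.

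GATA1 peaks stood in runs of more peaks. When peaks not more than 5 kb apart were joined, 396 of the 593 GATA1 peaks (66.8%) fell into 38 runs of at least 5 peaks, against 351 of the 653 codanin-1 peaks (53.8%) in 44 such runs. Runs of at least 10 peaks numbered 17 for GATA1 and 10 for codanin-1. The smallest edge-to-edge distance genome-wide was 241 bp in the GATA1 list and 406 bp in the codanin-1 list. The part of this difference in the run counts was not tested. The GATA1 runs with the most peaks lay close together. The first had 25 peaks in 41.4 kb from 20196404 to 20237785, and the second 24 peaks in 32.0 kb from 20242930 to 20274880. The third had 23 peaks in 55.7 kb from 20100869 to 20156604. In this order the runs held 15, 11 and 10 codanin-1 peaks. The codanin-1 run with the most peaks had 16 in 38.5 kb, from 19716355 to 19754813, together with 17 GATA1 peaks. The next had 15 peaks each. One spanned 40.3 kb from 20242887 to 20283229 with 25 GATA1 peaks, the other 34.7 kb from 21058094 to 21092787 with only 7.

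Taken as a whole, codanin-1 peaks of the region were wider than those of the distal arm and of other chromosomes. They were narrower than those of the adjoining stretch from 22 to 24 Mb. Their median width was 312 bp (exact interval of the median 287 to 331), against 206 bp from 24 Mb on (159 to 257) and 212 bp outside chromosome 22 (208 to 217), while it was 400 bp from 22 to 24 Mb (359 to 429). The GATA1 median was 194 bp in the region (179 to 205), against 151 bp from 24 Mb on (90 to 215, from 24 peaks) and 160 bp outside chromosome 22 (155 to 166), while it was 249 bp from 22 to 24 Mb (219 to 266). Within the region the codanin-1 median was 318 bp in the crowded part (290 to 337) and 173.5 bp in the sparse part (123 to 370). The sparse value was thus not above that of the distal arm. The GATA1 medians of these parts were 195 bp (176 to 208) and 183.5 bp (124 to 226). Only 8.88% of the region's codanin-1 peaks had the list's minimum width of 101 bp, against 17.9% outside chromosome 22, and for GATA1 6.41% had the minimum of 60 bp, against 12.6%. Peaks of 1000 bp or more made up 5.05% of the region's codanin-1 peaks (33), against 13.9% from 22 to 24 Mb and 0.895% outside chromosome 22. For GATA1 the share was lower in the region than in either, with 0.337% in the region (2 peaks), 3.47% from 22 to 24 Mb and 2.70% outside chromosome 22. The widest codanin-1 peaks all lay in the crowded part. They were 2528 bp at 18959575 to 18962102 (4.49-fold), 2148 bp at 19024182 to 19026329 (4.32-fold), 1750 bp at 20810692 to 20812441 (4.18-fold), 1728 bp at 19966801 to 19968528 (3.91-fold) and 1536 bp at 20270441 to 20271976 (4.13-fold). Each of these 5 overlapped at least 1 GATA1 peak. After the 1549 bp peak of the sparse part, the widest GATA1 peaks were 1001 bp at 20182766 to 20183766, 972 bp at 21328614 to 21329585, 970 bp at 21348465 to 21349434 and 941 bp at 21756341 to 21757281, and of these 4 the last overlapped a codanin-1 peak.

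Codanin-1 enrichment was lower in the crowded part than in the sparse part, whereas the GATA1 intervals of both parts met. Fold enrichment, a ratio over the caller's background, was computed by the authors per peak and is compared here within a list. The region's codanin-1 peaks had a median fold of 3.81 (3.77 to 3.84), against 4.08 from 24 Mb on (3.94 to 4.18) and 3.99 outside chromosome 22 (3.98 to 4.00). The GATA1 median was 4.16 in the region (4.13 to 4.19), against 4.30 from 24 Mb on (4.11 to 4.51) and 4.20 outside chromosome 22 (4.19 to 4.22). Within the region the codanin-1 median was 3.80 in the crowded part (3.76 to 3.83) and 4.03 in the sparse part (3.90 to 4.27). For GATA1 it was 4.16 in the crowded part (4.13 to 4.19) and 4.33 in the sparse part (4.13 to 4.50). In the region 18 codanin-1 peaks (2.76%) had a fold of 5 or more, against 4.78% of the whole list, and 14 GATA1 peaks (2.36%) did, against 5.25% of the whole list. The −log10 q was 5 or more in 2 of the region's codanin-1 peaks (0.306%), near the 0.188% of the whole list, and in 3 of its GATA1 peaks (0.506%), against 5.27%.

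Fold enrichment was lower still beyond the upper bound. In 250 kb windows of the crowded part with at least 20 peaks, the codanin-1 median ran from 3.67 to 3.89 and the GATA1 median from 4.05 to 4.27. From 22 to 24 Mb the medians were 3.58 for codanin-1 (3.55 to 3.62) and 3.92 for GATA1 (3.88 to 3.94), below the region's in both lists. Among peaks of like significance the order of the parts held in each class but 1, the most significant GATA1 peaks. For codanin-1 peaks with a −log10 p under 5, the median fold was 3.64 in the crowded part, 3.89 in the sparse part, 3.38 from 22 to 24 Mb and 3.86 outside chromosome 22. With a −log10 p of 5 to 6 the medians were 4.09, 4.28, 3.70 and 4.25. For GATA1 the medians under 5 were 3.90, 3.99, 3.66 and 3.97, and from 5 to 6 they were 4.20, 4.27, 3.95 and 4.26. With a −log10 p of 6 or more the codanin-1 medians were 4.598, 5.68, 4.18 and 4.85. The GATA1 medians in this class were 4.76, 4.66, 4.37 and 4.64, with the crowded part above the sparse part and above the genome outside chromosome 22. The sparse part had only 19, 10 and 5 codanin-1 peaks and 5, 20 and 11 GATA1 peaks in these classes. Peaks were not matched on width.

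**Figure D4:**
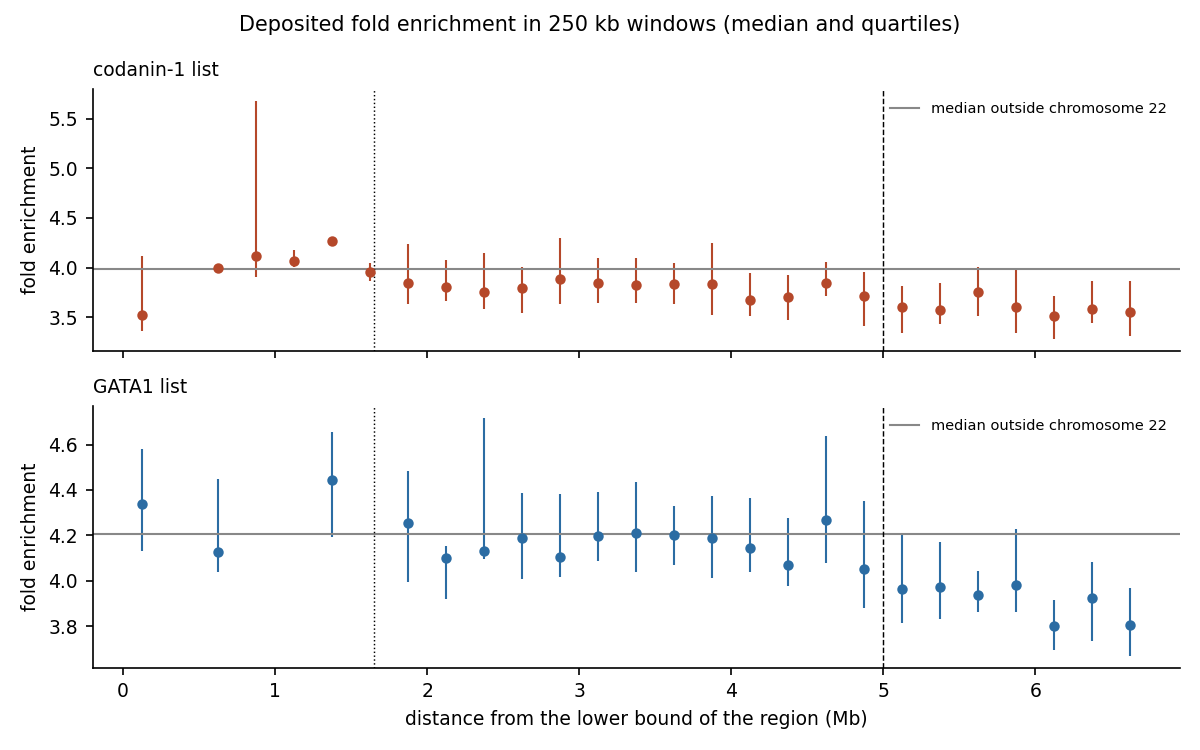
Deposited fold enrichment of codanin-1 peaks (top) and GATA1 peaks (bottom) in 250 kb windows, by distance in Mb from the lower bound of the region; points are medians, bars run from the lower to the upper quartile, and windows with under 5 peaks are not drawn. The grey line is the median outside chromosome 22, 3.99 for codanin-1 and 4.20 for GATA1. The dotted and dashed lines mark the start of the crowded part and the upper bound. Above the upper bound the medians of both lists lie below their grey line, and those of codanin-1 do so throughout the crowded part as well.

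The 3 codanin-1 peaks of highest fold were in the sparse part. The highest, at 17911024 to 17911209, had a fold of 6.24 and a −log10 q of 7.09 and overlapped a GATA1 peak of 4.72-fold. It was followed by 18305967 to 18306075 (5.85-fold) and 17965490 to 17965591 (5.68-fold), so 3 of the 5 highest lay among the 34 codanin-1 peaks of that part. The others were at 18952867 to 18953339 (5.66-fold) and 20791558 to 20791686 (5.52-fold), each overlapping a GATA1 peak. In order of fold, these 5 codanin-1 peaks were 186, 109, 102, 473 and 129 bp wide, where the list's minimum was 101 bp. By −log10 q the codanin-1 peaks after the one at 17911024 were at 19418377 to 19418698 (5.11), which lay 22599 bp from the nearest GATA1 peak, and at 20791558 to 20791686 (3.90). The 5 most enriched GATA1 peaks all lay in the crowded part, which held 557 of the region's 593, and overlapped no codanin-1 peak. They were at 20952468 to 20952527 (6.12-fold, −log10 q 7.92), 21520009 to 21520073 (5.82-fold), 18840953 to 18841022 (5.63-fold), 20235113 to 20235481 (5.54-fold) and 20471564 to 20471623 (5.31-fold). Their nearest codanin-1 peaks were 177 to 4175 bp away. Their widths, in the same order, were 60, 65, 70, 369 and 60 bp, where the list's minimum was 60 bp. The third GATA1 peak by −log10 q, 5.32, stood in the first 100 kb at 17046762 to 17046941 and overlapped a codanin-1 peak of 3.19-fold.

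Both lists shared more sites here than in the genome at large. Of the region's codanin-1 peaks, 149 overlapped a GATA1 peak by at least 1 bp, or 22.8% (19.7 to 26.2), against 6.60% of the whole list. From 24 Mb on 6 of 69 did, or 8.70% (3.26 to 18.0). Of the region's GATA1 peaks, 163 met one of codanin-1, a share of 27.5% (23.9 to 31.3), against 20.2% of the whole list and 6 of 24 from 24 Mb on (25%, 9.77 to 46.7). From 22 to 24 Mb the shares were higher still, at 31.7% of codanin-1 peaks (27.3 to 36.2) and 58.0% of GATA1 peaks (52.4 to 63.5). Overlap grows with width and with crowding, and the part of either in these shares was not tested. Within width classes, 10.3% of the region's codanin-1 peaks under 150 bp overlapped a GATA1 peak (5.87 to 16.4), against 1.67% outside chromosome 22 (1.33 to 2.08). Among codanin-1 peaks of 600 bp or more the shares were 45.2% in the region (36.4 to 54.3) and 32.2% outside chromosome 22 (28.4 to 36.1). GATA1 peaks under 150 bp overlapped in 19.8% of cases in the region (14.9 to 25.5) and 7.77% outside chromosome 22 (6.63 to 9.04). Those of 150 bp up to 300 bp did so in 27.4% (21.6 to 33.9) and 14.3% (12.6 to 16.1). GATA1 peaks of 300 bp up to 600 bp overlapped in 41.0% of cases in the region (32.2 to 50.3) and 35.1% outside chromosome 22 (30.7 to 39.6). Of GATA1 peaks of 600 bp or more, 8 of 24 overlapped in the region (33.3%, 15.6 to 55.3), against 150 of 220 outside chromosome 22 (68.2%, 61.6 to 74.3), and these intervals did not meet.

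GATA1 peaks of the region that were close to a codanin-1 peak stood beside it more often than on top of it. Of the 593 GATA1 peaks, 405 (68.3%) had a codanin-1 peak within 1 kb, of which 163 overlapped it and 242 lay beside it. Overlapping peaks were thus 40.2% of the close ones in the region (35.4 to 45.2), against 66.4% from 22 to 24 Mb (60.5 to 72.0) and 60.0% outside chromosome 22 (57.1 to 62.9). Among codanin-1 peaks 324 had a GATA1 peak within 1 kb, and overlapping ones were 46.0% of these in the region (40.5 to 51.6), against 72.0% from 22 to 24 Mb (65.1 to 78.2) and 66.7% outside chromosome 22 (63.7 to 69.7). Only 41 GATA1 peaks of the region (6.91%) were more than 5 kb from a codanin-1 peak, against 56.3% outside chromosome 22. Codanin-1 peaks more than 5 kb from a GATA1 peak numbered 184 (28.2%), against 87.3% outside chromosome 22. The median spacing within each list was 3.37 kb for codanin-1 and 1.96 kb for GATA1 in the region. Outside chromosome 22 it was 50.2 kb and 44.8 kb. The part of this crowding in the shares was not tested.

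**Figure D5:**
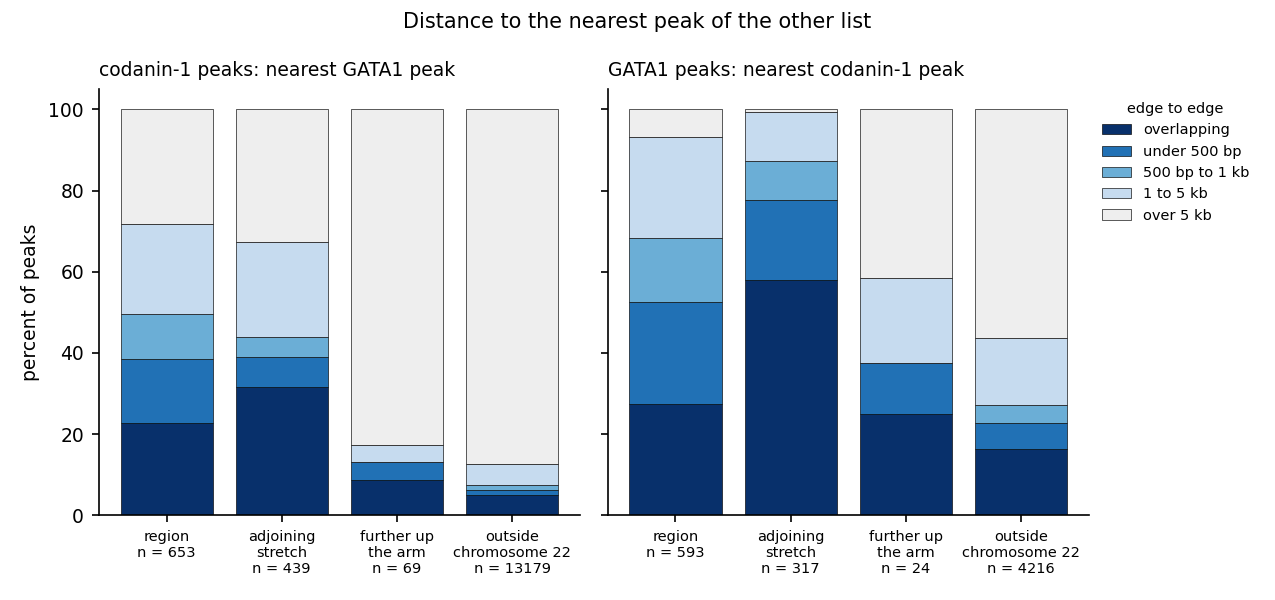
Percent of codanin-1 peaks (left) and GATA1 peaks (right) by edge-to-edge distance to the nearest peak of the other list, in the region, the adjoining stretch from 22 to 24 Mb, the arm from 24 Mb on and outside chromosome 22; n is the number of peaks. In the region 22.8% of codanin-1 and 27.5% of GATA1 peaks overlapped, and a further 15.8% and 24.96% lay under 500 bp from the other list.

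The overlapping sites were of ordinary height for the region. The 149 overlapping codanin-1 peaks formed 163 pairs with GATA1 peaks, 14 of them with 2 each. The median shared length was 133 bp (quartiles 73 and 236), and in 74 pairs (45.4%) the GATA1 peak lay wholly inside the codanin-1 peak. The midpoints were a median of 151 bp apart, with the GATA1 midpoint on the higher coordinate in 78 pairs and on the lower in 85. Overlapping codanin-1 peaks had a median fold of 3.83 (3.78 to 3.91), against 3.80 in the other codanin-1 peaks of the region (3.76 to 3.84). Outside chromosome 22 the same medians were 3.54 (3.45 to 3.60) and 4.00 (3.99 to 4.01), so the lower fold of overlapping peaks seen there was not seen in the region. GATA1 behaved alike, with 4.20 in overlapping (4.13 to 4.27) and 4.15 in other peaks of the region (4.12 to 4.19), against 4.04 (4.00 to 4.07) and 4.23 (4.21 to 4.25) outside chromosome 22. Across the 163 pairs the log2 fold of both proteins had a Pearson r of 0.11, a weak relation between sites that share libraries and depth. After the peaks at 17911024, 18952867 and 20791558, the overlapping codanin-1 peaks of highest fold were at 21802145 to 21802288 (5.28-fold, with a GATA1 peak of 4.03-fold) and 19865220 to 19865436 (5.18-fold, with 4.38-fold).

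Overlap varied along the crowded part. In the 6 whole 500 kb windows from 19 to 22 Mb the share of codanin-1 peaks overlapping a GATA1 peak was lowest from 19 to 19.5 Mb, at 7 of 77 (9.09%, 3.73 to 17.8), and highest from 20.5 to 21 Mb, at 25 of 76 (32.9%, 22.5 to 44.6). The low window was also the one with the most codanin-1 peaks per GATA1 peak, 36 GATA1 peaks for 77. The share of GATA1 peaks overlapping codanin-1 was steadier, from 23.7% between 19.5 and 20 Mb (16.2 to 32.6) to 34.3% between 21 and 21.5 Mb (23.3 to 46.6), and these intervals met. At 250 kb, 0 of 29 codanin-1 peaks from 19.25 to 19.50 Mb overlapped one of the only 5 GATA1 peaks there, with a Clopper-Pearson upper bound of 11.9%.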

How the data were processed

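Per the submitters' processing notes, BWA and MACS2 were used with build hg19. Versions, the background library, thresholds and filters were not given in the sources used here. Per the labels' protocols, chromatin was sheared in 18 sonication cycles. Each deposited list has 9 columns without a header. The fold enrichment (a ratio over the caller's background), the −log10 p and −log10 q values and the score were computed by the authors for each peak; the score was not used. Mb, kb and bp positions are on hg19, counted from 1.

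No row was filtered out. Peaks were placed by midpoint, and overlap meant at least 1 bp. Counts carry exact Poisson, shares Clopper-Pearson, density ratios conditional binomial and medians order-statistic intervals, at 95%. Density on other chromosomes was taken up to the last peak of each. Positions were named by rule: in each list the 5 peaks of highest fold, the 5 widest and the 3 with the highest −log10 q, the 5 overlapping codanin-1 peaks of highest fold, the borders of the 5 longest empty stretches, the peaks at the bounds and the 3 fullest 100 kb windows. Individual stretches without GATA1 peaks and runs of peaks were added to these after their values were seen. Members and lists were chosen with earlier results of these data known. The functions were tested on simulated data. The gene, promoter and miRNA tables supplied are of GRCh38.p14, so no peak was placed in a gene, no motif was searched and no sequence was used here. Python 3.11.15, numpy 2.4.6, scipy 1.17.1, pandas 2.3.3 and matplotlib 3.10.9 were used.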

Additional observations from a re-analysis of the deposited data

How the results depend on the processing

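No paired analysis was possible because there is 1 library for each antibody, which also means that none could be left out. Of 66 alternatives to 14 values, 27 stayed within the 95% interval of the main value (edges: within 0.1 Mb) and 39 did not; the cause was not tested unless fewer peaks or another definition is named. Density over the distal arm stayed above 1 throughout. For codanin-1 it was 88.3 at a −log10 q of at least 2, 30.0 at a fold of at least 4, 30.1 against the genome outside chromosome 22 and 78.9 by covered length. For GATA1 it was 85.5 against the genome outside chromosome 22. Choices made after seeing the data gave 72.4 in the crowded and 8.06 in the sparse part for codanin-1, and 24.5 in the sparse part for GATA1. Overlap depended on its definition: when 0.5 of both lengths had to be shared it was 5.05% of codanin-1 and 5.56% of GATA1 peaks, within 1 kb 49.6% and 68.3%, and after merging peaks within 1 kb 27.5% and 36.7%. With both lists shortened to a −log10 q of at least 2 it was 6.12% (9 of 147) and 9.28% (9 of 97). At a fold of at least 4 it was 21.3% of codanin-1 peaks (45 of 211) and 10.3% of GATA1 peaks (47 of 455). That cut kept 211 of the region's 653 codanin-1 peaks but 455 of its 593 GATA1 peaks. In the sparse part the overlap was 22.2% of GATA1 peaks. With a −log10 q of 2 or more the median fold was 4.37 for codanin-1 and 4.72 for GATA1, the codanin-1 median width 218 bp, and the median spacing 18665 bp in the codanin-1 list and 13268 bp in the GATA1 list, with fewer peaks. Without peaks of minimum width the codanin-1 median width was 332 bp. Merging gave median widths of 370.5 bp in the codanin-1 list and 251.5 bp in the GATA1 list and spacings of 4833.5 bp and 4215.5 bp, and edge to edge the spacings were 3062.5 bp and 1759.5 bp. Empty windows were 14.0% for codanin-1 at 50 kb, and in the crowded part 0% for codanin-1 and 3.03% for GATA1. The upper edge was 24.7 Mb for codanin-1 and 23.7 Mb for GATA1 at a −log10 q of at least 2, 23.7 Mb in both by runs of 10 windows, and 23.66 Mb for codanin-1 and 23.65 Mb for GATA1 by the last peak before the longest empty stretch. Depth is unknown, so how many sites fell below the threshold cannot be given, and placement in genes and the motif search were not run.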

Other observations

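The stretch from 22 to 24 Mb, outside the region, changed character towards the edge of the crowding. From 23.25 to 23.5 Mb it held 84 codanin-1 peaks of median width 520 bp and 113 GATA1 peaks, and 57.1% of these codanin-1 peaks (45.9 to 67.9) overlapped a GATA1 peak. From 23 to 23.25 Mb, just below, 96 codanin-1 peaks stood beside only 21 GATA1 peaks, and 13.5% of the codanin-1 peaks (7.41 to 22.04) overlapped one. No 250 kb window of the region had a codanin-1 overlap share as high as 57.1% except the first, from 17 to 17.25 Mb, with 7 of 10 peaks (70.0%, 34.8 to 93.3).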
